A study of Mus musculus with 8 samples.

Results

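Retinal progenitor and neuron markers were followed in RNA of mouse lenses at embryonic day 14.5 as 8 genes, Rax, Lhx2, Six6, Otx2, Atoh7, Neurod1, Isl1 and Stmn2. They were chosen by name, as rows of the count table whose Ensembl ID maps to those symbols, and all 8 were found among 43432 gene IDs. The series compares lenses labelled Mettl3 CKO, in which the RNA m6A methyltransferase gene Mettl3 was conditionally deleted, with control lenses. There were 4 libraries of each genotype, with replicates a to d. Every library was made from polyadenylated lens RNA, and the Cre driver, the strain and the number of lenses or animals per library are not stated in the labels. Replicates a and b (set 1) were deposited in another block of records than replicates c and d (set 2), which the labels do not call a batch, and set was a term in the fit. The labels do not say whether replicates are separate animals, and p-values cover only library-to-library spread, possibly technical in part.

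The neural retina grows from the optic cup, which surrounds the back of the lens, and at this stage it consists mostly of dividing progenitors. Rax, Lhx2 and Six6 encode homeodomain transcription factors that specify the eye field and keep retinal progenitors multipotent. Atoh7 encodes a bHLH factor that makes progenitors competent to become ganglion cells, and Neurod1 encodes another that acts in photoreceptor and amacrine precursors. Isl1 is a LIM homeodomain gene of early ganglion cells, and Stmn2 encodes a microtubule regulator of growing axons. Otx2 acts in the retinal pigment epithelium and in photoreceptor and bipolar precursors. Other eye genes, such as Pax6 and Six3, are used by lens and retina alike.

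Library totals lay between 19110170 counts in CKO a and 56098211 counts in control d. Lens identity was clear in every library: the summed level of 12 lens genes, among them the alpha crystallin gene Cryaa and the fiber membrane gene Mip, lay between 124070 and 173036 CPM (counts scaled to the library size, itself adjusted by the TMM method) in CKO libraries and between 159442 and 196693 CPM in control libraries, with CKO c the lowest. Of these 12, Cryab (log2 fold change -0.57, edgeR adjusted p = 0.0309) and Lim2 (-0.57, adjusted p = 0.0307) fell, and 0 passed without CKO c and control a. Mettl3 had 13.4, 15.9, 8.11 and 12.2 CPM in CKO libraries a to d, against 28.4, 25.4, 23.8 and 21.4 CPM in control libraries a to d (log2 fold change -1.02, SE 0.15, edgeR adjusted p = 0.00259). The 8 markers together reached 22.1, 21.4, 92.4 and 11.2 CPM in CKO libraries a to d, against 36.3, 2.60, 4.19 and 3.72 CPM in control libraries a to d. CKO c and control a thus stood apart as the highest library of their genotype, and the markers' results are given with and without both. In RNA of whole tissue, fewer cells of a type and less RNA per cell cannot be told apart.

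Among the eye field and progenitor genes, Rax had 3.73, 3.59, 10.6 and 1.49 CPM in CKO libraries a to d, against 3.40, 0.0441, 0.219 and 0.378 CPM in control libraries a to d. Only control a reached the range of the CKO libraries, and control b held a single Rax read, so its value carries a wide counting error. The fitted log2 fold change of CKO over control was 2.61 (SE 1.32, edgeR quasi-likelihood adjusted p = 0.275). Rax (ENSMUSG00000024518) lies on mm10 chromosome 18, 65928277 to 65939787, minus strand, and shares 1604 exonic bases with the antisense gene Raxos1, which had at most 0.367 CPM in CKO and 0.115 CPM in control libraries.

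Lhx2, a LIM homeodomain gene, had 7.66, 3.22, 21.6 and 3.97 CPM in CKO libraries a to d, against 5.35, 0.794, 0.438 and 0.415 CPM in control libraries a to d. Again control a alone overlapped the CKO libraries. The log2 fold change was 2.74 (SE 1.30, edgeR adjusted p = 0.253), the smallest adjusted p among the 8 genes. Lhx2 (ENSMUSG00000000247) lies on chromosome 2, 38339281 to 38369733, plus strand. No exon of another annotated gene overlaps its exons.

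Six6, a paralogue of Six3, had 6.30, 1.49, 17.8 and 2.62 CPM in CKO libraries a to d, against 3.13, 0.0882, 0.268 and 0.642 CPM in control libraries a to d. Control a exceeded CKO b and CKO d, while the other 3 control libraries lay below every CKO library. The log2 fold change was 2.83 (SE 1.37, edgeR adjusted p = 0.259), the highest fitted value of the 8 genes. Six6 (ENSMUSG00000021099) lies on chromosome 12, 72939892 to 72944899, plus strand, and shares 192 exonic bases with 4930447C04Rik on the opposite strand. That neighbour averaged 1.86 ± 0.874 CPM in CKO libraries and 1.42 ± 0.301 CPM in control libraries (SD, n = 4 each; log2 fold change 0.36, edgeR adjusted p = 0.538).

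Otx2 had 1.21, 1.69, 4.67 and 0.698 CPM in CKO libraries a to d, against 2.56, 0.0882, 0.511 and 0.302 CPM in control libraries a to d. Control a was second only to CKO c, and the other 3 control libraries lay below all 4 CKO libraries. Its fitted log2 fold change was 1.43 (SE 1.07, edgeR adjusted p = 0.449). Otx2 (ENSMUSG00000021848) lies on chromosome 14, 48657677 to 48673819, minus strand. Its exons overlap those of the noncoding Otx2os1 by 154 bases, and Otx2os1 had at most 0.121 CPM in CKO and 0.146 CPM in control libraries. Gm49154, on the same strand as Otx2, overlaps them by 168 bases and was not analysed here.

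Among the genes of neurogenesis and neurons, Atoh7 had 1.26, 7.82, 21.7 and 1.32 CPM in CKO libraries a to d, against 9.14, 0.220, 0.414 and 0.812 CPM in control libraries a to d. CKO b, CKO c and control a were high and the other 5 libraries were at 1.32 CPM or below. The log2 fold change was 2.01 (SE 1.82, edgeR adjusted p = 0.547). Atoh7 (ENSMUSG00000036816) lies on chromosome 10, 63099651 to 63101279, plus strand.

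Neurod1 had 0.315, 0.927, 3.92 and 0.0969 CPM in CKO libraries a to d, against 1.72, 0.265, 0.0487 and 0.113 CPM in control libraries a to d. CKO d lay below control b and control d, so the genotypes overlapped among the low libraries as well as at control a, and the value of control c rests on 2 reads. Fitted over both sets, the log2 fold change was 1.75 (SE 1.71, edgeR adjusted p = 0.574). Neurod1 (ENSMUSG00000034701) lies on chromosome 2, 79452521 to 79456751, minus strand, and shares 201 exonic bases with Cerkl on the same strand, whose level was at most 0.367 CPM in CKO and 0.265 CPM in control libraries. Gm26755, on the opposite strand, overlaps Neurod1 by 154 exonic bases and had 0.0755 CPM in control d and 0 in the other 7 libraries. Whether counting used strand is not stated, so reads of overlapping genes cannot be told apart.

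Isl1 had 0.105, 0.887, 4.42 and 0.504 CPM in CKO libraries a to d, against 2.56, 0.132, 0.390 and 0.227 CPM in control libraries a to d. CKO a, with 2 reads, was the lowest of all 8 libraries, so the genotypes overlapped throughout. For CKO over control the log2 fold change was 0.87 (SE 1.55, edgeR adjusted p = 0.775). Isl1 (ENSMUSG00000042258) lies on chromosome 13, 116298281 to 116309689, minus strand.

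Stmn2 had 1.52, 1.77, 7.67 and 0.504 CPM in CKO libraries a to d, against 8.41, 0.970, 1.90 and 0.831 CPM in control libraries a to d. It was the only one of the 8 genes that was highest in a control library. The log2 fold change was 0.08 (SE 1.24, edgeR adjusted p = 0.975). Stmn2 (ENSMUSG00000027500) lies on chromosome 3, 8509360 to 8561606, plus strand.

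**Figure D1:**
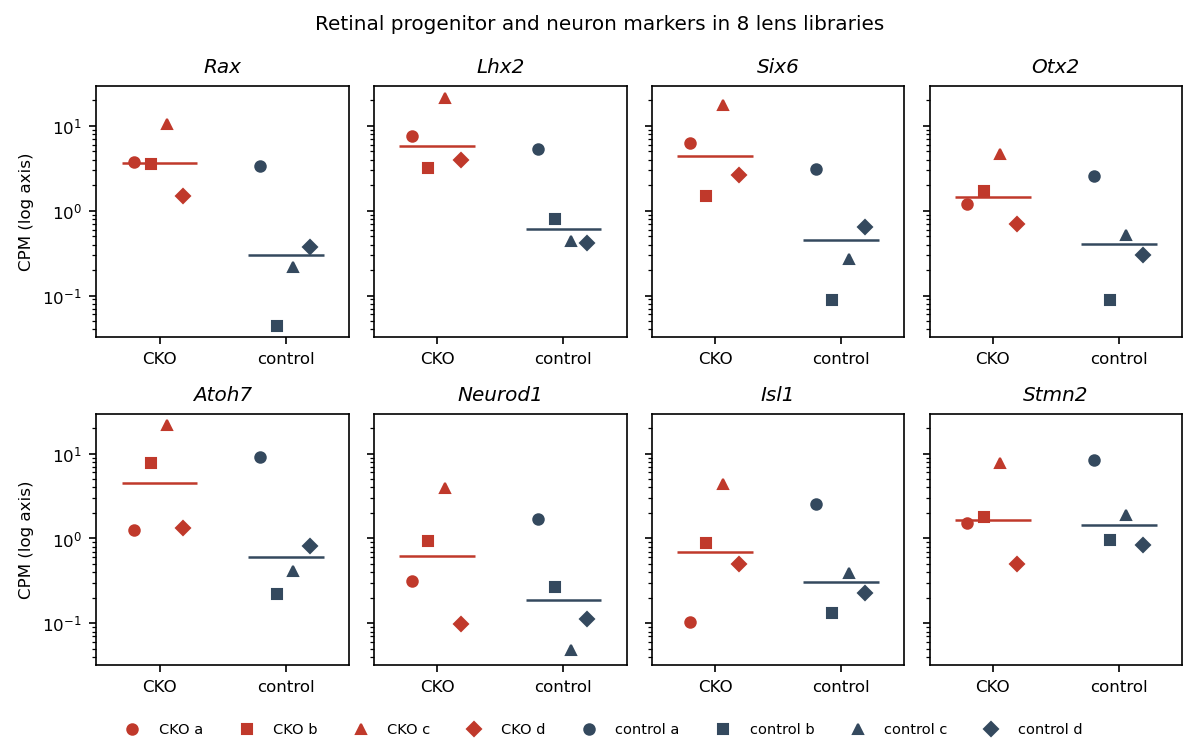
Level of each of the 8 genes in CPM on a log axis, with 1 point per library (CKO left, control right) and a horizontal line at the median of each genotype. CKO c and control a lie above the other libraries of their genotype in all 8 panels, and the medians lie farthest apart for Rax, Lhx2 and Six6.

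None of the 8 markers passed the test between genotypes. With edgeR, 0 of 8 had an adjusted p under 0.05 and 0 of 8 an unadjusted p under 0.05, where 10.5% of the 16241 genes tested passed with adjustment (6.5% higher and 4.01% lower in CKO) and 26.5% without. DESeq2 called 1 member, Lhx2 (adjusted p = 0.0490, with 15.2% of genes called and 9.03% as higher), and limma-voom called 0 (11.9% of genes called). An unadjusted p under 0.05 was found for 3 members with DESeq2 and 2 with limma-voom. The share of all genes at that unadjusted threshold was counted for edgeR only. All 8 fitted log2 fold changes lay above 0, with a median of 1.88, against -0.03 over all genes tested, of which 7609 lay above 0. Their standard errors were 1.07 to 1.82 on the log2 scale, so differences of several-fold were not detectable with these libraries. With no filter on low counts, edgeR called 6 of them, all but Isl1 and Stmn2, where 8.93% of 26992 genes were called. Their adjusted p lay between 1.62e-19 for Lhx2 and 0.0153 for Neurod1, at nearly the same fold changes. Yet Lhx2 had an edgeR adjusted p of 0.253 with the filter, and control a (5.35 CPM) lay above CKO b and CKO d (3.22 and 3.97 CPM). These small p-values are therefore not read as a difference beyond the spread between libraries. The cause was not tested.

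These values moved when control a or CKO c was left out. Without control a, Rax (log2 fold change 4.62, adjusted p = 0.0185), Otx2 (3.01, adjusted p = 0.0324), Lhx2 (4.13, adjusted p = 0.0399) and Six6 (4.61, adjusted p = 0.0435) passed edgeR's test, against 8.58% of all genes in that fit (5.73% as higher). Without CKO c none passed (5.34% of genes called). The adjusted p of the 7 members that could still be fitted lay between 0.279 and 0.893. Their log2 fold changes were 1.54 for Rax, 1.78 for Lhx2, 1.75 for Six6, 0.39 for Atoh7 and 0.38 for Otx2. For Isl1 and Stmn2 they were -0.51 and -1.48. Leaving out both, a choice made after these values were seen, left Lhx2 (3.0, SE 0.40, adjusted p = 0.00482) and Rax (3.44, SE 0.70, adjusted p = 0.0300) called, against 2.85% of all genes (2.22% as higher). In those 6 libraries every CKO library lay above every control library for Rax, Lhx2, Six6, Otx2 and Atoh7, where 12.7% of tested genes did so. Six6 (3.40, SE 0.88, adjusted p = 0.103), Otx2 (1.94, adjusted p = 0.207), Atoh7 (2.39, adjusted p = 0.350), Isl1 (1.18, adjusted p = 0.502) and Stmn2 (-0.35, adjusted p = 0.826) did not pass, and Neurod1 was removed by the filter on low counts. Because the 2 libraries were left out for their own marker levels, these values describe the remaining libraries and are not an independent test.

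Fitted within each set alone, the members had a median log2 fold change of 0.02 in set 1, which holds control a, and 4.24 in set 2, which holds CKO c. In set 1, Rax (1.04), Six6 (1.22), Lhx2 (0.78) and Otx2 (0.10) were fitted above 0 and Atoh7 (-0.06), Neurod1 (-0.68), Isl1 (-1.42) and Stmn2 (-1.53) below 0, and edgeR called none (8.63% of genes called). In set 2, only Lhx2 passed (4.94, edgeR adjusted p = 0.0464; 4.99% of genes called). The difference between the sets did not pass edgeR's interaction test for any member (adjusted p 0.359 for Lhx2 to 0.568 for Six6), and over all 16241 genes the interaction called 0 (0% of genes). For Lhx2 it was 4.09 (SE 1.81).

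The 8 genes peaked in the same libraries. CKO c was the highest library for 7 of the 8 and control a for the remaining gene, Stmn2, while CKO c was highest for 18.0% of all tested genes and control a for 9.63%. Control a was second for 4 members, CKO a for 3 (Rax, Lhx2 and Six6) and CKO c for 1. Below these peaks the order of libraries differed among the members. CKO a was second for Rax, Lhx2 and Six6, below CKO b for Otx2, Atoh7, Neurod1 and Stmn2, and lowest of all for Isl1, on 2 reads. The order was not shared by all progenitor genes compared below. CKO a was second for Zic1, whereas Fgf15 had 3.25 CPM in CKO a, against 8.91 CPM in CKO b and 14.7 CPM in control a.

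The balance between the progenitor and the neuron genes among the members can be read within a library, where scaling has no part in it. Counts of Atoh7, Neurod1, Isl1 and Stmn2 made up 15.3% (exact 95% interval 11.9 to 19.2), 57.9% (53.4 to 62.3), 43.0% (41.6 to 44.4) and 23.1% (19.6 to 26.8) of the counts of these 4 genes plus Rax, Lhx2 and Six6 in CKO libraries a to d. In control libraries a to d they made up 64.7% (61.5 to 67.9), 63.2% (49.3 to 75.6), 74.8% (67.1 to 81.5) and 58.0% (50.5 to 65.3). CKO a, CKO c and CKO d lay below every control library, whereas CKO b and control d differed by less than their counting error. The place of CKO b depended on the genes counted: without Stmn2 its share was 53.7% (49.0 to 58.4), against 53.0% in control a, 40.0% in control b, 47.9% in control c and 44.5% in control d, so it lay above all 4. CKO b also lay above at least 1 control library without Rax, Lhx2 or Isl1, and below all 4 without Six6, Atoh7 or Neurod1. Atoh7 held 194 of the 283 counts of the 4 neuron genes in CKO b. Without Atoh7 the shares were 9.89%, 30.2% (25.0 to 35.8), 24.3% and 12.0% in CKO libraries a to d. In control libraries a to d they were then 51.6%, 59.6%, 71.6% and 44.9% (36.5 to 53.6). Without Stmn2, CKO c, at 37.5% (36.1 to 38.9), lay within the intervals of control b (23.9 to 57.9), control c (36.1 to 60.0) and control d (36.0 to 53.3). These shares rest on 398 to 4994 counts in CKO libraries and 57 to 882 in control libraries, and intervals cover counting error only. CKO c and control a, the libraries with most marker RNA, differed by more than their intervals. The comparison was chosen after the values were seen and has no test.

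**Figure D2:**
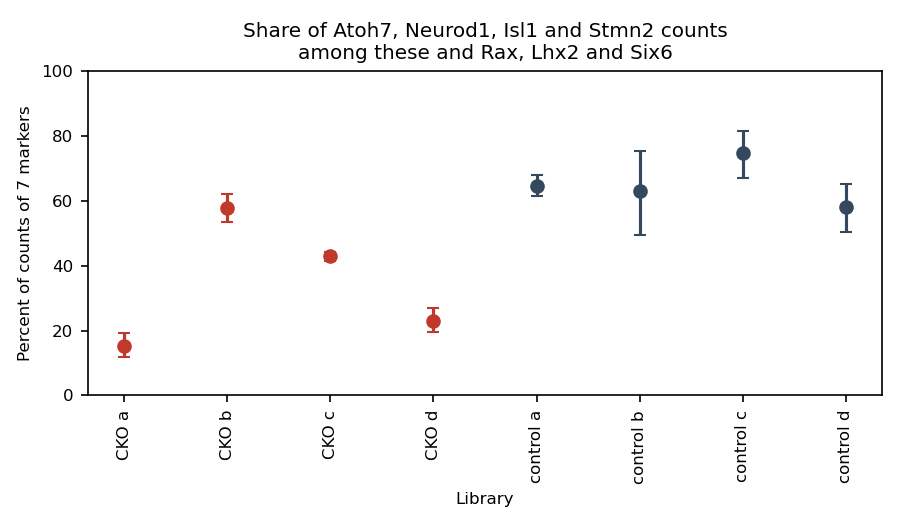
Percent of the counts of 7 genes that fell on Atoh7, Neurod1, Isl1 and Stmn2 rather than on Rax, Lhx2 and Six6, with 1 point per library (CKO left, control right) and exact 95% binomial intervals. CKO a and CKO d lie lowest, at 15.3% and 23.1%, and CKO b, at 57.9%, lies beside control d, at 58.0%.

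Compared per kilobase of exon, Atoh7 had the highest median level of the 8 genes in both genotypes, at 2.80 CPM per kilobase in CKO and 0.376 CPM per kilobase in control libraries. In CKO libraries Lhx2 (1.32), Six6 (1.11), Rax (0.625), Otx2 (0.343), Stmn2 (0.294), Neurod1 (0.228) and Isl1 (0.176 CPM per kilobase) followed. In control libraries the order was Stmn2 (0.256), Lhx2 (0.140), Six6 (0.113), Otx2 (0.0964), Isl1 (0.0778), Neurod1 (0.0692) and Rax (0.0510 CPM per kilobase). The ranges of all neighbours in both orders overlapped, so none of these steps was larger than the spread between libraries.

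The start regions of 4 of the 8 genes are shown as a description. Six6 was taken for the highest fitted difference and Otx2 as a gene between the groups. Atoh7 was taken for the highest level per length and Isl1 as a gene of early neurons. Whether promoter sequence has a part in the shared peaks was not tested. The regions are RefSeq promoters of GRCm38.p6 (the build named mm10 elsewhere), each 250 bases before to 50 bases after a transcription start. Promoters of 6 of the 8 genes were used. Stmn2 had no entry in that set of promoters, and Rax was not looked up. Of the 4 Otx2 starts in that table, the one nearest the start of the GENCODE gene is given. That start, at 48667644, lies inside the gene, which begins at 48673819 on the minus strand. Capitals mark CANNTG, the E-box core bound by bHLH factors such as Atoh7 and Neurod1, TAATTA, a core bound by many homeodomain factors, and TAATCC, the core bound by Otx2 and its relatives, on either strand. CANNTG and TAATTA read the same on both strands, and no 2 matches overlap in the regions shown.
Six6, chr12:72939632-72939931, plus strand: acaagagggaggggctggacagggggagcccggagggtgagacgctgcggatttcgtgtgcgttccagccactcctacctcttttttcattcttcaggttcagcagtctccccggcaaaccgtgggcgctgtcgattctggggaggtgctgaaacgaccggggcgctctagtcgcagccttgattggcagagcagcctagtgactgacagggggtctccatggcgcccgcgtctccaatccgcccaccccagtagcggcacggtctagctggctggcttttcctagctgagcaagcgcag
Otx2, chr14:48667595-48667894, minus strand: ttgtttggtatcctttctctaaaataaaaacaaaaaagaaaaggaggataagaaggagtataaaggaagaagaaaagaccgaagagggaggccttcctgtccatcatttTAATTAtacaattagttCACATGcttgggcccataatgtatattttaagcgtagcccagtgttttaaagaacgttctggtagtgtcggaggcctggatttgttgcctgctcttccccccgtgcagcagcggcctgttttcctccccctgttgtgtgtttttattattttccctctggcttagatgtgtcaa
Atoh7, chr10:63099535-63099834, plus strand: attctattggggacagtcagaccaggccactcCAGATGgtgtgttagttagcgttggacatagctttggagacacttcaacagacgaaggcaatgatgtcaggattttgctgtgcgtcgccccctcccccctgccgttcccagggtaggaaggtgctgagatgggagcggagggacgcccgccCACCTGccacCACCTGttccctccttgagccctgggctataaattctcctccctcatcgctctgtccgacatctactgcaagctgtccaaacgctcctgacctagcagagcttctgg
Isl1, chr13:116309639-116309938, minus strand: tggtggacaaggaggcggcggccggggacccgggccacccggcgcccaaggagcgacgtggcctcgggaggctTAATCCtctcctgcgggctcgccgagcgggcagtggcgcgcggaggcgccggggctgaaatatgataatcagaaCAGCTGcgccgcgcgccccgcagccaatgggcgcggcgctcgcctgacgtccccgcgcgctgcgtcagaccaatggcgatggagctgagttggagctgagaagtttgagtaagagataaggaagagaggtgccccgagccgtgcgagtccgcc

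Six6 had no match to any of the 3 motifs, and neither had Lhx2, whose region is not printed. Atoh7 held 3 CANNTG matches, and Otx2, Isl1 and Neurod1 held 1 each. Otx2 also held 1 TAATTA and Isl1 1 TAATCC. Over 32817 promoters of the same length, 72.3% held CANNTG, 5.30% TAATTA and 7.06% TAATCC, so most promoters held an E-box core. A match is a description of these letters and shows no binding.

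Beyond the 8 markers, other genes of retina and nervous system were compared in the same fit. Of 104 such genes in 6 lists, 76 were tested, 3 rose and 1 fell. Of 16 tested retinal progenitor genes, none rose and none fell, and the median log2 fold change was 1.02, against -0.03 over all genes tested. That median was -0.08 in set 1 alone (15 genes) and 2.76 in set 2 alone (16 genes), against -0.0037 and -0.015 over all genes. Without CKO c and control a it was 0.72. Its size thus differed between the sets, and in set 1 it lay near that of all genes. Fgf15, an FGF ligand gene of retinal progenitors, averaged 16.8 ± 23.7 CPM in CKO libraries and 4.33 ± 6.91 CPM in control libraries (SD, n = 4 each; log2 fold change 2.13, SE 1.98, edgeR adjusted p = 0.559; 2.34, adjusted p = 0.0804 without CKO c and control a). Zic1, a zinc finger gene of the peripheral retina, had 18.2, 7.98, 31.4 and 8.08 CPM in CKO libraries a to d, against 5.70, 1.85, 2.80 and 2.27 CPM in control libraries a to d. Its genotypes did not overlap, with all CKO libraries above all control libraries as in 8.96% of all tested genes, but it did not pass (2.39, SE 0.62, edgeR adjusted p = 0.0602). Sfrp2 and Lin28b, abundant in every library, had log2 fold changes of 0.19 and 0.29 (edgeR adjusted p 0.412 and 0.150).

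Of 13 tested genes of neurogenic precursors, 3 rose and 1 fell, with a median of 0.69 (-0.03 in set 1 alone, 1.33 in set 2 alone and 0.67 without CKO c and control a). Sox11, a SoxC gene of differentiating neurons, had 45.0, 36.8, 102 and 56.8 CPM in CKO libraries a to d, against 27.5, 14.8, 17.9 and 22.2 CPM in control libraries a to d (log2 fold change 1.48, SE 0.32, edgeR adjusted p = 0.0322). Hes6, a bHLH gene that promotes neuronal differentiation, averaged 32.7 ± 3.97 CPM in CKO libraries and 20.8 ± 3.37 CPM in control libraries (0.65, SE 0.14, edgeR adjusted p = 0.0148). All 4 CKO libraries lay between 30.0 and 38.5 CPM and all 4 control libraries between 18.0 and 25.4 CPM, a far narrower spread than that of Rax or Atoh7. Sox4 rose by 0.78 (SE 0.20, edgeR adjusted p = 0.0399), and Gadd45g, a growth arrest gene, fell by 0.56 (SE 0.14, edgeR adjusted p = 0.0299). All 4 genes were at 14.8 CPM or above in control b, c and d, where Rax was at most 0.378 CPM. Btg2, an antiproliferative gene, had a log2 fold change of 0.21 (edgeR adjusted p = 0.299). Leaving out libraries moved this count of 4 called among the 76 genes, which became 0 without control b or control d, 1 without CKO a or CKO d, 2 without CKO c and 9 without control a. The share of all genes called moved as well, from 10.5% with all libraries to 4.53% without control b, 3.15% without control d, 6.76% without CKO a, 4.1% without CKO d, 5.34% without CKO c and 8.58% without control a. Without both CKO c and control a it was 3 (2.85% of all genes), namely Sox11 (1.48, adjusted p = 0.00234), Zic1 (2.19, adjusted p = 0.0273) and Hes6 (0.67, adjusted p = 0.0325).

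Genes of neurons were counted in the same way. Of 15 tested ganglion cell genes and 19 tested pan-neuronal genes, none passed, and the medians were 0.14 for ganglion cell genes and 0.18 for pan-neuronal genes. Without CKO c and control a they were 0.33 and 0.17, in set 1 alone -0.37 and -1.11, and in set 2 alone 1.57 and 0.89, in the same order. Tubb3, the neuronal beta tubulin gene, had 4.25, 11.0, 29.7 and 3.28 CPM in CKO libraries a to d, against 26.9, 5.25, 6.21 and 4.10 CPM in control libraries a to d (log2 fold change 0.33, SE 1.10, edgeR adjusted p = 0.888; -0.06 without CKO c and control a). CKO c and control a were high, and the other 6 libraries of the genotypes overlapped. Control a was the highest library for 14 of the 19 pan-neuronal genes and CKO c for 2, whereas among the 16 progenitor genes CKO c was highest for 12 and control a for 2. Map2, a dendrite microtubule gene, averaged 13.5 ± 1.30 CPM in CKO libraries and 17.8 ± 2.98 CPM in control libraries (-0.39, SE 0.14, edgeR adjusted p = 0.103). Dpysl3 and Crmp1, axon guidance mediators of 1 family, had log2 fold changes of 0.53 and 0.22 (edgeR adjusted p 0.355 and 0.832). The ganglion cell genes Klf7, Rbpms, Ebf1 and Ebf3, named for their high mean level, had values between -0.15 and 0.12 (edgeR adjusted p 0.537 to 0.949). They do not stand for the list. Its 15 tested genes ran from -0.72 for Thy1 to 1.74 for Pou4f2 (edgeR adjusted p 0.615 and 0.588), with 12 above 0. Of later retinal cell types, 9 of 14 photoreceptor genes and 4 of 13 horizontal, amacrine and bipolar cell genes were tested and edgeR called none. Of these, Rxrg, a retinoid receptor gene of cones, averaged 0.906 ± 0.191 CPM in CKO libraries and 1.67 ± 0.355 CPM in control libraries (-0.88, edgeR adjusted p = 0.104), and Gnb3, a cone transducin gene, 1.40 ± 0.403 CPM in CKO and 0.546 ± 0.490 CPM in control libraries (1.44, edgeR adjusted p = 0.209; 2.20, adjusted p = 0.137 without CKO c and control a; SD, n = 4 each). Thrb and Prdm1 had log2 fold changes of -0.37 and 0.06, and Slc6a9, Tfap2b and the GABA synthesis gene Gad2 of 0.39, 0.05 and 2.06 (edgeR adjusted p 0.227 to 0.953). Prdm13 was not tested.

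**Figure D3:**
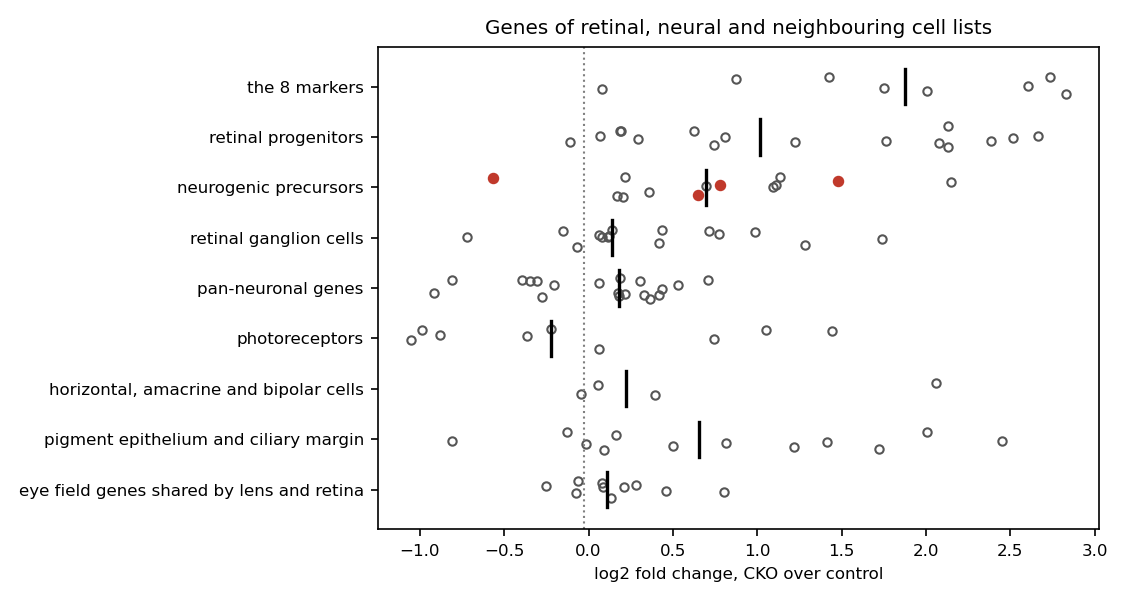
Log2 fold change of CKO over control for each tested gene of 9 lists (open circles, filled red where the adjusted p was under 0.05), with a bar at the median of each list and a dotted line at the median of all genes tested. All 8 libraries entered the fit. The progenitor list has its median at 1.02 (0.72 without CKO c and control a) and the pan-neuronal list at 0.18, and the 4 called genes all belong to the neurogenic precursors.

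The 5 tested genes whose profile over the 8 libraries lay nearest the median profile of the markers were Fezf2, Soga3, Apba2, Chrna3 and Pou4f2, with root mean square differences of 0.19 to 0.33 on the log2 scale (CPM plus 0.5, centred per gene), against a median of 1.19 over all genes. The markers themselves lay between 0.31 (Otx2) and 0.75 (Six6) from that profile. Fezf2, a zinc finger gene of forebrain and retinal neurons, had 0.945, 1.09, 4.13 and 0.446 CPM in CKO libraries a to d, against 2.18, 0, 0.0974 and 0.151 CPM in control libraries a to d. Pou4f2, a POU factor gene of ganglion cells, had 0.577, 1.93, 7.94 and 0.969 CPM in CKO libraries a to d, against 3.59, 0.0441, 0.390 and 0.113 CPM in control libraries a to d. Both were highest in CKO c and second in control a. Because the 5 genes were picked for the smallest differences, these peaks and differences follow from the choice and are no separate evidence.

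Markers of other tissues around the lens were summed in the same libraries. In 12 tested genes of pigment epithelium and ciliary margin, edgeR called none, with a median of 0.66 (1.12 without CKO c and control a) and sums of 125.0 to 171.9 CPM in CKO and 126.1 to 146.5 CPM in control libraries. Of 10 eye field genes shared by lens and retina, none passed either (median 0.11), and 8 were highest in CKO c. Summed levels of 12 genes of periocular mesenchyme lay between 191.9 and 532.5 CPM in CKO and between 308.0 and 591.3 CPM in control libraries. Control a was the highest control there and CKO c the lowest of all 8 libraries, and Pdgfra fell (-0.48, edgeR adjusted p = 0.0445; 0 called without CKO c and control a). The same order held for 10 genes of surface ectoderm and cornea, with 127.9 CPM in CKO c and 307.2 CPM in control a. Summed levels of 10 vessel genes lay between 278.8 and 877.3 CPM in CKO and between 289.2 and 660.3 CPM in control libraries, with CKO c the lowest of all. Sums of 10 red blood cell genes lay between 447.8 and 4118 CPM in CKO and between 585.4 and 2235 CPM in control libraries, again with CKO c the lowest. Of 10 macrophage genes 4 rose, the complement genes C1qc, C1qa and C1qb and the chemokine receptor gene Cx3cr1, where 6.5% of all tested genes rose. Without CKO c and control a 1 rose, where 2.22% of all genes did. The summed level of the 10 was higher in CKO a and CKO b (115.4 and 122.5 CPM) than in CKO c and CKO d (58.3 and 51.3 CPM) and in control libraries (33.5 to 49.8 CPM). The part of these tissues in the values of the 8 genes was not tested.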

How the data were processed

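RNA of E14.5 lenses was sequenced from 4 Mettl3 CKO and 4 control libraries. The authors deposited whole-number read counts per Ensembl gene, not normalised. Per the submitters' processing notes, CASAVA, HISAT2, featureCounts and mm10 were used, while versions, annotation release and strand setting were not given in the sources used. Of 43432 IDs, 42548 matched GENCODE M21, which gave symbols and lengths. No column lacked a sample.

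Counts were tested with edgeR 4.0.16 in R 4.3.3 (quasi-likelihood, robust, TMM, genotype plus set, Benjamini-Hochberg over all genes). Genes under edgeR's low count filter (minimum count 10, total 15) were removed, which left 16241, and all 8 markers passed. The common biological coefficient of variation was 23.1%, and the fit was tested on simulated data. Alternatives used DESeq2 1.42.0, limma 3.58.1 (voom), other scaling, no filter, single sets and left-out libraries. Replicate letters were not treated as pairs in the main fit. CPM in the text are TMM-scaled. Exact binomial intervals came from scipy 1.17.1.

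The members and lists were chosen with earlier results of these data known. Other genes were named by rule: overlapping genes, up to 4 called genes of a list, up to 4 of highest mean level in a retinal or neural list, and the 5 nearest profiles.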

Additional observations from a re-analysis of the deposited data

Results flagged for a closer look

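Within a genotype of 4 libraries, a library was singled out when its gap to the nearest other, as a share of the range, exceeded Dixon's 95% critical value, which chance gives in about 1 in 20 groups. Of 30 groups examined, 9 met it, and 6 of the 16 groups of single markers did. All 6 were control a standing above the other controls: Rax at 3.40 CPM, Lhx2 at 5.35 CPM, Atoh7 at 9.14 CPM, Neurod1 at 1.72 CPM, Isl1 at 2.56 CPM and Stmn2 at 8.41 CPM. The summed level of the 8 markers stood apart in CKO c, at 92.4 CPM, and in control a, at 36.3 CPM. The summed level of the retinal progenitor list stood apart in CKO c, at 416.9 CPM. These groups share libraries, so the 9 are not independent of each other.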

How the results depend on the processing

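The count of called markers, 0 with edgeR, was 1 with DESeq2, 1 in set 2 alone, 6 with no filter on low counts and 2 without control a and CKO c, a setting added after the data were seen; leaving out single libraries gave 0 to 4. Over all genes the count of 1706 was 665 with a replicate block, 858 in set 2 alone, 462 without control a and CKO c, and 503 to 2553 without single libraries. The 4 retinal and neural list genes called became 21 with no filter (8.93% of all genes called) and 2 in set 1 alone (8.63% of all genes called). They became 0 to 9 without single libraries. The cause was not tested. Deviations of same-letter libraries from their genotype means had correlations of -0.14, 0.10, -0.30 and 0.37 for a to d. They still hold the difference between the sets, so they cannot show whether letters pair the libraries. No marker was called with the replicate block. Direction reversed in set 1 alone for Atoh7 (-0.059), Neurod1 (-0.68), Isl1 (-1.42) and Stmn2 (-1.53), and without CKO c for Isl1 (-0.51) and Stmn2 (-1.48); without single libraries these ranged from -0.51 to 2.74 and from -1.48 to 1.29. Stmn2 was also below 0 with no set term (-0.042), with the replicate block (-0.026), without control b (-0.12), control c (-0.23) or control d (-0.55), and without control a and CKO c (-0.35). Rax, Lhx2, Six6 and Otx2 stayed above 0 in all 19 settings run, and Neurod1 could be fitted in 16. Low counts of the 8 markers in control b, c and d limit their fold changes.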
